A study of Mus musculus with 8 samples.

Results

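This section describes 38 genes of antigen presentation and of the interferon response in the nucleus accumbens of male C57BL/6 mice that received morphine or saline. They were picked by mouse symbol from a table of 22337 genes: 12 of antigen presentation (MHC class I and class II chains, peptide loading, and a class I transactivator) and 26 antiviral or interferon-stimulated genes. All 38 had a row. The nucleus accumbens lies in the ventral striatum, and morphine is an agonist of mu opioid receptors. Bulk RNA was sequenced in 4 libraries per treatment. The series title calls the exposure chronic, while its dose and schedule and the animals' age are not stated in the labels. Nor do the labels tie replicates to separate animals, and p-values here cover only library-to-library spread, possibly technical.

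MHC class I molecules show peptides from inside the cell to cytotoxic T cells. Each consists of a heavy chain (H2-K1, H2-D1) and the light chain B2m, and is loaded in the endoplasmic reticulum with peptides that the Tap1 and Tap2 transporter brings in and tapasin (Tapbp) helps to fit. Class II molecules show peptides from outside the cell, and Cd74 is their invariant chain. Type I interferon acts on genes that carry the interferon-stimulated response element (ISRE), through a complex that includes STAT2 and IRF9, and interferon gamma on genes that carry the gamma-activated site (GAS). In brain, class I is found on vessel walls, on microglia and on some neurons.

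The values are FPKM (fragments scaled to transcript length and library size), and read depth is unknown. A change is the difference of mean log2(FPKM + 1), morphine minus saline. It was tested with limma on 12536 genes that reached 1 FPKM in at least 4 libraries, with p-values adjusted over all of them (Benjamini-Hochberg) and a threshold of 0.05. By this test 1.48% of all genes fell and 1.04% rose. The libraries also differed in striatal, cortical and mitochondrial genes, both among the saline libraries and between the treatments. Between the treatments, such differences cannot be told apart from an effect of morphine. Striatal projection neuron genes summed to 4936 FPKM in saline replicate 3, 1036 to 1251 in the other saline libraries and 281 to 422 in the morphine libraries, and cortical glutamatergic genes to 33.1, 162 to 164 and 193 to 245 FPKM. Their part in the results below was not tested. Calls among the genes described here and in the marker lists below are given with and without saline replicate 3. Leaving it out keeps the striatal and cortical difference between the treatments. For the wider list below, calls without that library are not given. The mitochondrial share of FPKM was 9.09 to 12.6% in saline and 6.10 to 7.94% in morphine. With those genes removed, the split of 130 higher and 186 lower genes became 77 and 211.

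H2-K1, Ifitm2 and Ifitm3 are among the genes that passed the test described below, and the stretches before their transcription starts are shown with those of B2m and Isg15, which did not pass, for comparison. The sequences are RefSeq's (GRCm38.p6), 5′ to 3′ along the gene's strand, and end before the first base that GENCODE M21 places in an exon. Capitals mark matches, on either strand, to an ISRE core (GAAA, any 2 bases, GAAA), the GAS TTCNNNGAA or a kappa B site, which NF-kB binds and whose letters are the capitals shown for H2-K1. These motifs were chosen with results known, and looser forms were not searched.
H2-K1, chr17:34000348-34000597, minus strand: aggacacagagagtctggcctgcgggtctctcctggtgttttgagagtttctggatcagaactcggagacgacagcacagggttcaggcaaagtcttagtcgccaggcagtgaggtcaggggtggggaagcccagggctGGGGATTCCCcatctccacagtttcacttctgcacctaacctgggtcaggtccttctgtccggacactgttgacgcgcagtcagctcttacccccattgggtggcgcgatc
B2m, chr2:122147437-122147685, plus strand: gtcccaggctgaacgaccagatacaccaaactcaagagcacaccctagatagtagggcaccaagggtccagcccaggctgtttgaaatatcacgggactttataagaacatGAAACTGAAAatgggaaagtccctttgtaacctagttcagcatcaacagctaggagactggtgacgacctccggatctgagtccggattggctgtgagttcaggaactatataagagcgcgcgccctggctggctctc
Ifitm2, chr7:140955988-140956211, minus strand: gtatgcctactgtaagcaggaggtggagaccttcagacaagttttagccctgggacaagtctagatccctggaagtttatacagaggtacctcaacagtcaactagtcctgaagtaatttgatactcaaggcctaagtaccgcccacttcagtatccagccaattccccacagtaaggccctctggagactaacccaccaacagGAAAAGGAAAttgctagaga
Ifitm3, chr7:141010771-141010994, minus strand: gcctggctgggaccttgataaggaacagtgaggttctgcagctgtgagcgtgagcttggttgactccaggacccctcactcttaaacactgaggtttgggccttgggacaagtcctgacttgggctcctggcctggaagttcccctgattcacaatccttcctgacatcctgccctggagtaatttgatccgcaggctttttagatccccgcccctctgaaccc
Isg15, chr4:156200819-156201068, minus strand: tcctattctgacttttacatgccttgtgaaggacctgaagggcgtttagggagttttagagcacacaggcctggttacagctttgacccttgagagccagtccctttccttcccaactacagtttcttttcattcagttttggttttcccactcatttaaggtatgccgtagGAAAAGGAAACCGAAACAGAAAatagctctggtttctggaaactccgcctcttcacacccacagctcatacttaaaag

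Isg15 held 3 overlapping ISRE cores in this stretch, B2m and Ifitm2 held 1 each and Ifitm3 held none. H2-K1 held a kappa B site that began 111 bases before the start and no exact match to the ISRE core. H2-D1 held the same site 171 bases before its RefSeq start, inside an exon of H2-D1 in GENCODE, whose gene model begins 364 bases before the RefSeq start. The 30 bases round both sites were identical at 29 positions:
H2-K1, chr17:34000439-34000468, minus strand: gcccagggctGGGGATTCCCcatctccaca
H2-D1, chr17:35262913-35262942, plus strand: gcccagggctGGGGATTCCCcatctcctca

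RefSeq gave 1 or more windows of 250 bases before a start for 30 of the 38 genes, and a match in any of them was counted. The ISRE core was found in 13 of the 30 (43.3%) and in 3.46% of all 27025 genes with a window. Of those 13 genes, 2 belonged to antigen presentation (B2m and H2-T23) and 11 to the antiviral genes. The GAS was found in 5 of the 30, all antiviral (16.7%, against 8.13% of all genes), and the kappa B site in H2-K1 and H2-D1 only (6.67%, against 0.0999%). The kappa B letters searched were those of the H2-K1 site, and the H2-D1 stretch is nearly identical to it. A match in these genes was thus set beforehand, and the kappa B shares do not measure an enrichment. Of the 5 genes that passed the test described next, Ifitm2 was the only one with an exact ISRE core, against 9 of the 18 with a window that were tested and did not pass. Looser forms were not searched, so a gene without an exact match, such as H2-K1 or H2-D1, may still hold one. Some windows, however, lay inside GENCODE's gene model. The RefSeq start was 855 bases from GENCODE's in Ifitm1, 364 in H2-D1 and 3579 in Tapbp. The bases before GENCODE's start were not searched in these genes, and the 2 counts are not like for like. These are matches of letters in a window and do not show that a factor binds there.

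Of the 38 genes, 28 reached the level needed for the test, and none of them did so through the saline libraries alone. The test called 5 genes lower in morphine, H2-K1, H2-D1, Ifitm1, Ifitm2 and Ifitm3, which is 17.9% of the 28, and 0 higher (limma). Of all genes tested, 1.48% were called lower and 1.04% higher. At an unadjusted p under 0.05 there were 12 lower and 2 higher, 14 of 28, where 20.1% of all genes tested had such a p. The groups did not overlap in 7 of the 28 genes, all lower in morphine, against 6.10% of all genes for that direction and 6.56% for the other. The median change of the 28 was −0.36, and that of all genes tested was 0.01. Because the genes were chosen with earlier results of these data known, these counts are descriptions. In bulk RNA, fewer cells of a type and less RNA per cell cannot be told apart.

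**Figure D1:**
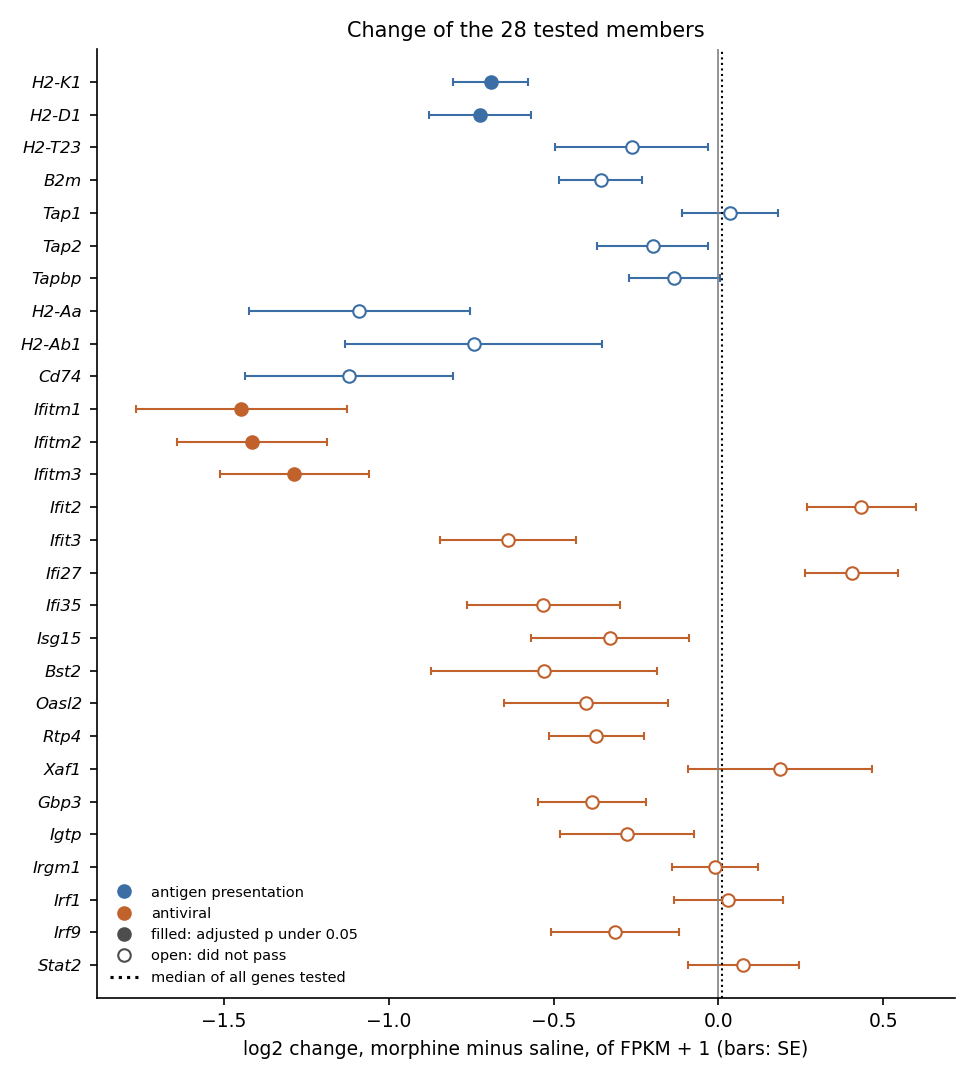
Change of each of the 28 tested genes (x axis: log2 change of FPKM + 1, morphine minus saline; bars are SE; y axis: genes in order of their role). Blue marks antigen presentation and orange the antiviral genes, filled points passed the test, and the dotted line is the median of all genes tested; the 5 filled points lie between −1.45 and −0.69.

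H2-K1 (ENSMUSG00000061232, chromosome 17, 33996017 to 34000347, minus strand, GRCm38) encodes a classical class I heavy chain. It had 23.94, 20.75, 25.26 and 20.11 FPKM in saline replicates 1 to 4 and 13.33, 13.56, 12.49 and 14.75 in morphine replicates 1 to 4. All morphine values lay below all saline values, and the gap between the groups was wider than the range within either. The means were 22.5 ± 2.48 and 13.5 ± 0.933 FPKM (SD, n = 4 each; log2 change −0.69 ± 0.11 SE, limma adjusted p = 0.0219). Without saline replicate 3 the change was −0.64 (limma adjusted p = 0.024).

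H2-D1 (ENSMUSG00000073411, chromosome 17, 35262730 to 35267499, plus strand), the other classical heavy chain, had 40.95, 33.98, 43.49 and 27.66 FPKM in saline and 22.55, 18.89, 19.60 and 25.21 in morphine. The groups did not overlap, with saline replicate 4 and morphine replicate 4 the nearest to each other. The change was −0.72 ± 0.15 (log2, SE; limma adjusted p = 0.0449). Without saline replicate 3 it was −0.63 and did not pass (limma adjusted p = 0.0597). Class I genes are alike in sequence. Of all words of 50 bases in GENCODE's H2-K1 transcripts, 9.63% also occur in transcripts of other genes, and of those of H2-D1 12.8%, so reads may be shared among them. The sum of H2-K1 and H2-D1, which a swap of reads between them would alter little, was 47.8 to 68.8 FPKM in saline and 32.1 to 40.0 in morphine, without overlap. The sum does not cover reads shared with other genes. The largest shares of words were with H2-Q10 for H2-K1 (5.18%) and with H2-Q1 for H2-D1 (5.87%).

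The light chain gene B2m was the most abundant gene of the set. It had 151.67, 118.50, 112.09 and 103.78 FPKM in saline and 99.51, 97.49, 85.77 and 92.54 in morphine. The groups did not overlap, but the change of −0.36 ± 0.13 (log2, SE) did not pass (limma adjusted p = 0.151). B2m overlaps the opposite-strand gene Patl2, which was listed at no more than 0.11 FPKM. The ratio of B2m to the sum of H2-K1 and H2-D1, computed after the values were seen and not tested, was 1.63 to 2.34 in saline and 2.32 to 3.00 in morphine. Only saline replicate 1 (2.34) and morphine replicate 4 (2.32) crossed.

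H2-T23, a non-classical class I gene, had 6.70 to 13.2 FPKM in saline and 5.63 to 11.1 in morphine, with overlapping groups (limma adjusted p = 0.573). H2-Q4 stayed at or below 0.48 FPKM in all 8 libraries and was not tested.

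The loading machinery did not pass the test. Tap1 had 1.74, 1.32, 1.41 and 0.94 FPKM in saline and 1.3, 1.23, 1.54 and 1.52 in morphine, a change of 0.04 ± 0.15 (log2, SE; limma adjusted p = 0.92) that turned negative without saline replicate 4 (−0.05). Tap2 changed by −0.20 ± 0.17 (3.49 to 4.06 FPKM in saline, 2.22 to 4.48 in morphine) and Tapbp by −0.13 ± 0.14 (12.7 to 18.8 and 13 to 16.6). None of the 3 had an unadjusted p under 0.05 with limma. Nlrc5, the transactivator of class I genes, was at or below 0.28 FPKM in every library.

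The class II genes, which in brain mark microglia, macrophages and other immune cells, were high in saline replicates 1 to 3 and low in replicate 4. H2-Aa, an alpha chain, had 6.17, 3.45, 6.12 and 1.37 FPKM in saline and 1.65, 0.59, 1.59 and 1.41 in morphine. Saline replicate 4 thus lay inside the morphine range. H2-Ab1, the beta chain, had 5.91, 5.27, 6.48 and 1.61 FPKM in saline and 5.29, 1.04, 1.95 and 1.85 in morphine. Here morphine replicate 1 reached the level of the higher saline libraries. Cd74 had 12.85, 12.51, 18.17 and 7.50 FPKM in saline and 10.11, 4.74, 2.98 and 4.36 in morphine, and the groups overlapped through the same 2 libraries. None of these genes passed with all 8 libraries (log2 changes −1.09 ± 0.33, −0.74 ± 0.39 and −1.12 ± 0.32 SE; limma adjusted p = 0.107, 0.316 and 0.0885). Without saline replicate 4, H2-Aa and Cd74 passed (−1.43 and −1.33; limma adjusted p = 0.0199 and 0.0498). Without saline replicate 3 the changes of H2-Aa, H2-Ab1 and Cd74 were −0.90, −0.59 and −0.94.

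Among the 28 tested genes, the 3 Ifitm genes had the largest negative changes. They encode small membrane proteins that block the entry of enveloped viruses, and the 3 lie close together on chromosome 7. Ifitm3 (ENSMUSG00000025492, 141009586 to 141010770, minus strand) had 44.17, 24.98, 46.45 and 21.68 FPKM in saline and 13.05, 12.45, 12.49 and 13 in morphine. The saline libraries spread widely, and the morphine libraries were nearly equal. The change was −1.29 ± 0.22 (log2, SE; limma adjusted p = 0.0264), and without saline replicate 3 it was −1.12 (limma adjusted p = 0.024).

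Ifitm2 (ENSMUSG00000060591, 140954837 to 140955987, minus strand) had 31.28, 21.62, 32.75 and 16.61 FPKM in saline and 10.66, 7.24, 6.68 and 10.68 in morphine. The order of the saline libraries was that of Ifitm3. The change was −1.41 ± 0.23 (log2, SE; limma adjusted p = 0.0213; −1.28 without saline replicate 3, limma adjusted p = 0.0216). Of its words of 50 bases 48.5% occur in other genes' transcripts, most of them in Gm45717 (36.1%), an overlapping gene on the same strand that was listed at 0 in all 8 libraries.

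Ifitm1 (ENSMUSG00000025491, 140967221 to 140969825, plus strand) had 31.31, 14.49, 17.71 and 7.67 FPKM in saline and 5.00, 4.67, 6.51 and 4.75 in morphine. Saline replicate 1 was the highest saline library, and saline replicate 4 was the nearest to the morphine libraries. The change was −1.45 ± 0.32 (log2, SE; limma adjusted p = 0.0464), and without saline replicate 3 it was −1.40 and did not pass (limma adjusted p = 0.0665). Ifitm1 shares 5.02% and Ifitm3 10.0% of words with other genes. The 3 genes summed to 106.8, 61.1, 96.9 and 46.0 FPKM in saline and 28.7, 24.4, 25.7 and 28.4 in morphine.

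**Figure D2:**
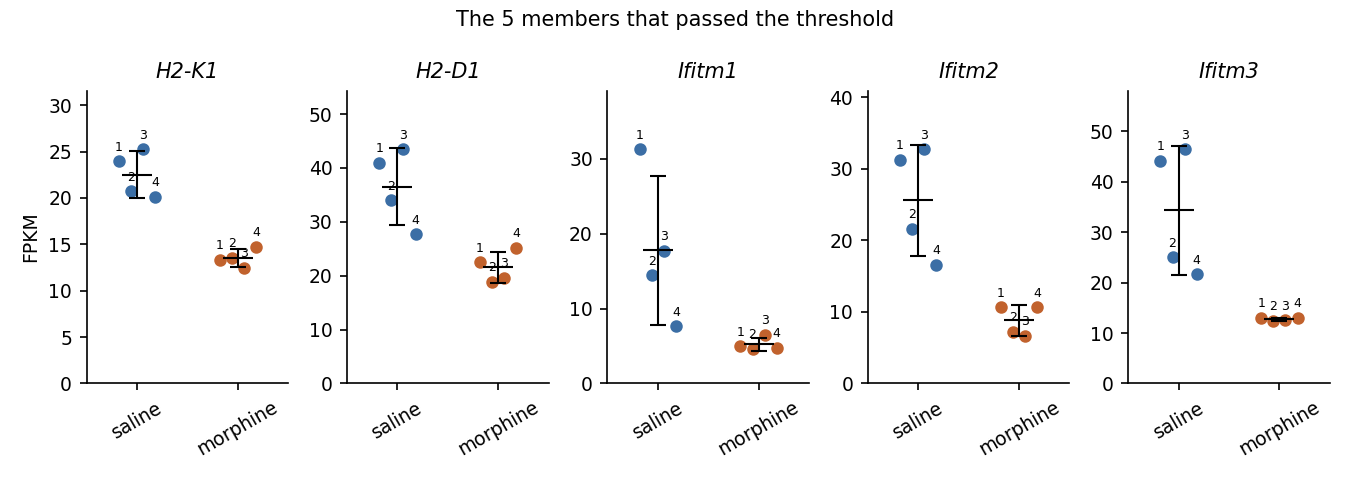
FPKM of the 5 genes that passed the test, 1 panel per gene, with each library as a point numbered by its replicate (y axes from 0; black bars are mean and SD, n = 4). All saline points lie above all morphine points in each panel, and saline replicate 4 is the lowest saline point in each.

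The Ifit genes, whose products bind foreign RNA, differed in direction. Ifit3 had 9.50, 9.11, 11.45 and 5.39 FPKM in saline and 5.95, 5.20, 3.90 and 5.80 in morphine (log2 change −0.64 ± 0.21 SE, limma adjusted p = 0.124), and it passed without saline replicate 4 (−0.83, limma adjusted p = 0.0328). Ifit3 shares 51.2% of its words with its copy Ifit3b. Ifit2 was higher on average in morphine, with 1.89, 1.55, 1.32 and 2.73 FPKM in saline and 2.93, 2.45, 2.85 and 3.06 in morphine. Its groups overlapped through saline replicate 4, and the change of 0.43 ± 0.17 (log2, SE) did not pass (limma adjusted p = 0.18). Ifit1 was at or below 1.68 FPKM and was not tested.

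Ifi27, which encodes a small interferon-induced protein, was the second most abundant gene of the set and was also higher on average in morphine. It had 69.80, 54.74, 45.12 and 59.42 FPKM in saline and 80.93, 82.19, 75.38 and 63.81 in morphine. Saline replicate 1 lay above morphine replicate 4, and the change of 0.40 ± 0.14 (log2, SE) did not pass (limma adjusted p = 0.15).

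Other effectors had low FPKM values and did not pass. Bst2 (tetherin), which holds budding virus at the cell surface, had 7.38, 5.00, 7.50 and 1.64 FPKM in saline and 4.25, 2.06, 3.44 and 2.65 in morphine, so that saline replicate 4 was the lowest of all 8 (log2 change −0.53 ± 0.34 SE, limma adjusted p = 0.425). Isg15, a ubiquitin-like modifier, had 2.34, 1.88, 1.65 and 0.58 FPKM in saline and 1.10, 0.63, 0.82 and 1.59 in morphine (limma adjusted p = 0.478). Here too the lowest library was saline replicate 4. Rtp4 had 2.99, 2.86, 2.56 and 2.52 FPKM in saline and 2.44, 1.82, 1.41 and 1.95 in morphine. Its groups did not overlap, and its change of −0.37 ± 0.14 (log2, SE) did not pass (limma adjusted p = 0.186). Ifi35 had 3.5, 3.43, 2.76 and 3.27 FPKM in saline and 3.29, 2.28, 0.81 and 1.88 in morphine (limma adjusted p = 0.233). Oasl2, a relative of the oligoadenylate synthetases, had 1.60, 1.70, 3.06 and 1.56 FPKM in saline and 1.40, 1.93, 0.36 and 1.5 in morphine (limma adjusted p = 0.401). Both genes overlapped between the groups. Xaf1 had overlapping groups as well, 1.64 to 3.81 FPKM in saline and 1.57 to 5.31 in morphine (limma adjusted p = 0.754).

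Interferon-induced GTPases, which act against pathogens inside cells, did not pass. Gbp3 had 2.29, 1.38, 2.15 and 1.54 FPKM in saline and 1.24, 0.88, 0.99 and 1.58 in morphine (log2 change −0.38 ± 0.16 SE, limma adjusted p = 0.226). Igtp changed by −0.28 ± 0.20 and Irgm1 by −0.01 ± 0.13 (log2, SE). Gbp2 was not tested; it had 0.58 to 1.63 FPKM in saline and 0.39 to 0.77 in morphine.

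The transcription factors of the interferon response did not pass. Stat2 had 3.15, 5.61, 3.31 and 4.77 FPKM in saline and 4.30, 4.94, 4.23 and 4.11 in morphine, all 4 morphine values inside the saline range (log2 change 0.08 ± 0.17 SE, limma adjusted p = 0.846). Irf9, its partner, had 3.54, 4.37, 3.11 and 2.06 FPKM in saline and 3.28, 2.10, 2.26 and 1.97 in morphine (−0.31 ± 0.19, limma adjusted p = 0.402). Irf1, an early target of interferon gamma, changed by 0.03 ± 0.17 (log2, SE). Irf7, the factor that amplifies type I interferon, was below the level needed for the test, at 1.26, 1.24, 1.48 and 0.43 FPKM in saline and 0.99, 0.43, 0.14 and 0.78 in morphine.

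**Figure D3:**
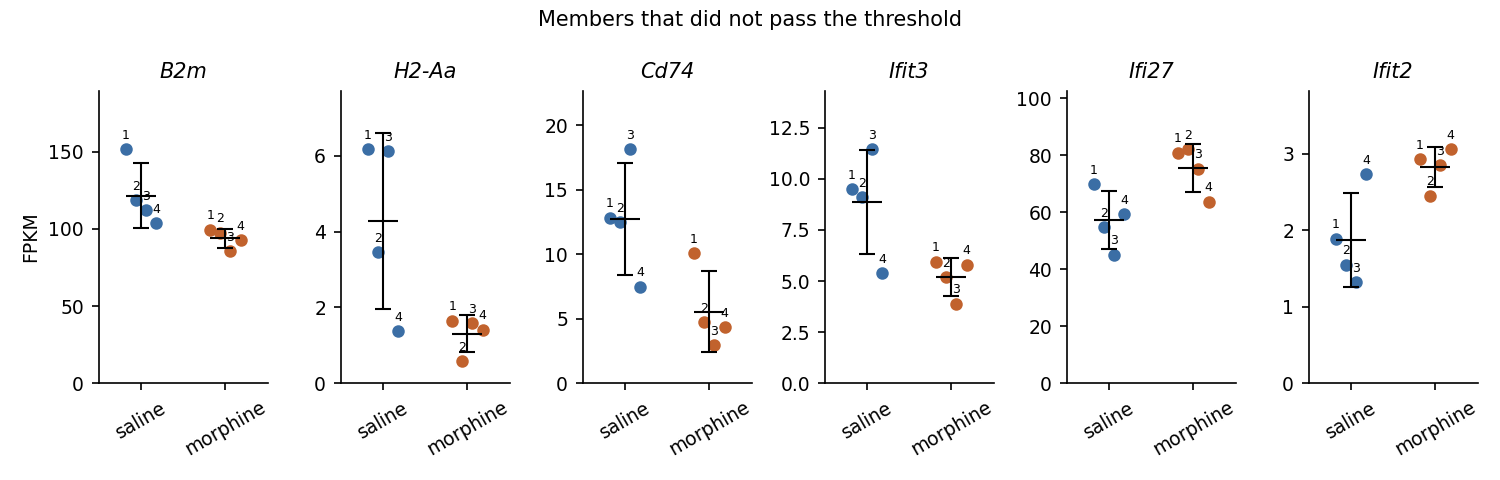
FPKM of 6 genes that did not pass the test, 1 panel per gene, with each library as a point numbered by its replicate (y axes from 0; black bars are mean and SD, n = 4). B2m has no overlap, H2-Aa, Cd74 and Ifit3 overlap through saline replicate 4, and Ifi27 and Ifit2 are higher on average in morphine.

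The remaining genes below the level for testing were Usp18, which removes Isg15 from proteins (highest value 1.60 FPKM), Isg20, an exonuclease (1.05), Ifih1, a sensor of double-stranded RNA (1.04), Rsad2, or viperin (0.42), and Parp14 (0.28). Isg20 was the only untested gene whose groups did not overlap, with 0.57 to 1.05 FPKM in saline and 0.10 to 0.53 in morphine.

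Antigen presentation and antiviral genes were set side by side. In antigen presentation 2 of 10 tested genes fell (20.0%), 0 rose and 9 of 10 had a negative change, with a median of −0.52. Among antiviral genes 3 of 18 fell (16.7%), 0 rose and 13 of 18 had a negative change, with a median of −0.35. Of all genes tested, 1.48% fell, 1.04% rose and 48.0% had a negative change. The order of the medians depended on the processing: with no filter on low values, over all 38 genes, they were −0.31 and −0.38, and with a filter at 5 FPKM −0.69 and −1.29. Within each group the genes that passed were from 1 family. Leaving out H2-K1 and H2-D1, a choice made after the values were seen, the median of antigen presentation was −0.31 with 0 of 8 genes passing in limma (3 at an unadjusted p under 0.05), and leaving out the Ifitm genes that of the antiviral genes was −0.31 with 0 of 15 (6 at an unadjusted p under 0.05). Summed FPKM of the 12 antigen presentation genes was 189 to 275 in saline and 151 to 185 in morphine, without overlap. That of the 26 antiviral genes was 149 to 238 and 134 to 159, with overlap. Each sum leaned on its most abundant gene. In the first, B2m held 104 to 152 FPKM in saline and 85.8 to 99.5 in morphine. In the second, Ifi27, higher on average in morphine, held 45.1 to 69.8 and 63.8 to 82.2 FPKM. In mean log2(FPKM + 1), where each gene counts alike, the treatments overlapped for antigen presentation and for the antiviral genes.

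The saline libraries differed among themselves in these genes. Saline replicate 4 was the lowest saline library in 19 of the 28 tested genes (67.9%), in 9 of 10 for antigen presentation and in 10 of 18 for the antiviral genes, while it was the lowest in 22.4% of all genes tested. Saline replicates 1 and 3 were the highest in 12 and 13 of the 28 genes (42.9% and 46.4%), and in 25.8% and 31.1% of all genes tested. In morphine, replicate 1 was the highest in 13 of the 28 (24.4% of all genes). Without saline replicate 4 limma called 8 of the 28 genes, all lower: the 5 named above, H2-Aa, Cd74 and Ifit3. Without saline replicate 3 it called 3, H2-K1, Ifitm2 and Ifitm3. Without saline replicate 1 or 2, or morphine replicate 2, 3 or 4, it called 0 (8 to 11 lower at an unadjusted p under 0.05), and without morphine replicate 1 it called Cd74, H2-K1 and Ifitm2. Of all 12536 genes, limma called 0 when morphine replicate 3 or 4 or saline replicate 2 was left out (1953 to 2136 at an unadjusted p under 0.05).

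**Figure D4:**
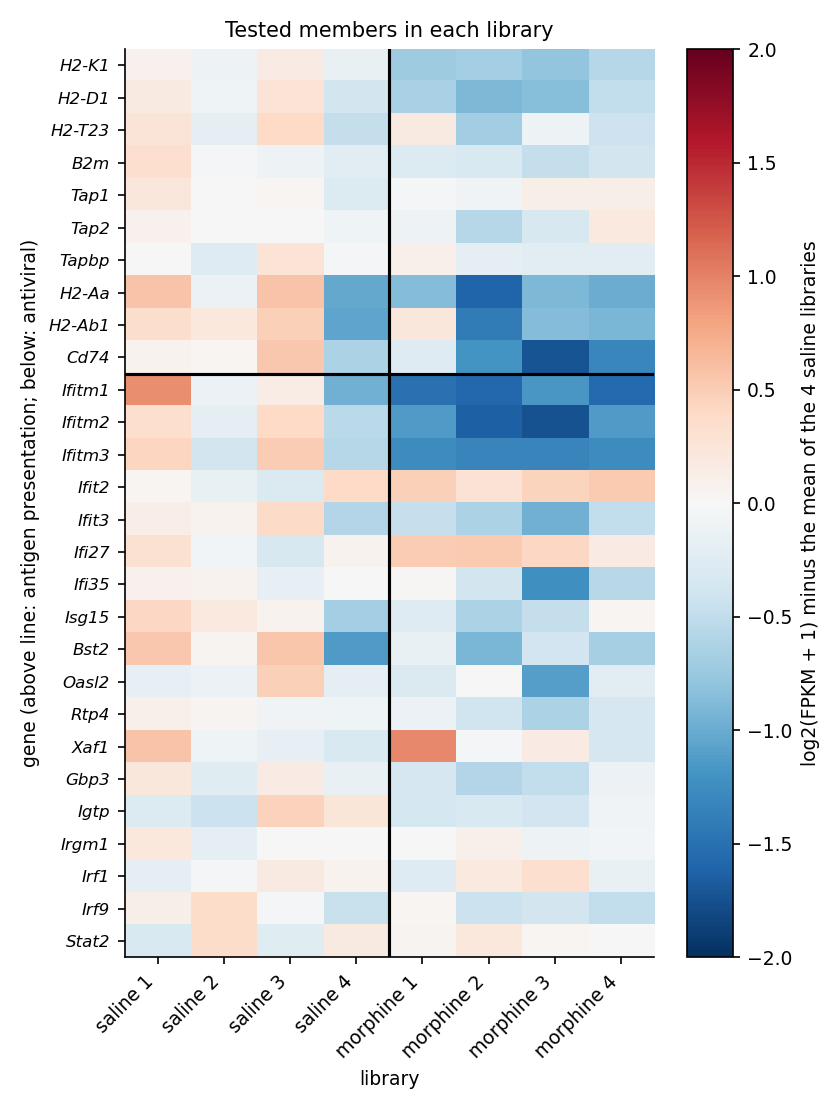
Level of the 28 tested genes in each library (columns: 4 saline, then 4 morphine; rows: genes, antigen presentation above the line) as log2(FPKM + 1) minus the mean of the 4 saline libraries; blue is lower and red higher. The Ifitm rows are blue in all morphine columns, and saline 4 is the lowest saline column in 19 of the 28 rows.

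A wider list of 84 interferon and antigen processing genes was examined, of which 83 had a row and 51 were tested. limma called 0 of the 51, and their median change was −0.04. At an unadjusted p under 0.05 there were 8 higher and 9 lower, where 20.1% of all genes tested had such a p. The interferon genes Ifnb1 and Ifng were listed at 0 in all libraries. The receptor subunits Ifnar1 (7.16 to 9.09 FPKM in saline, 7.35 to 9.01 in morphine) and Ifngr1 (12.4 to 16.0 and 12.4 to 14.7) overlapped between the groups, with log2 changes of 0.04 ± 0.12 and −0.04 ± 0.12 (SE). Ifnar2 overlapped as well (−0.14 ± 0.16). Ifngr2 did not overlap, with 24.25 to 37.88 FPKM in saline and 41.08 to 57.17 in morphine. Its change of 0.50 ± 0.16 (log2, SE) did not pass (limma adjusted p = 0.118).

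The smallest p among lower genes of that list belonged to Lgals9, a galectin (8.23 to 12.1 FPKM in saline, 3.86 to 7.34 in morphine; log2 change −0.81 ± 0.19 SE, limma adjusted p = 0.0507). It passed with mitochondrial genes removed and, with Irf2 and Lgals3bp below, without saline replicate 4. Ifi27l2a also passed without that library (log2 change −1.02, limma adjusted p = 0.0328), in which it had 0.18 FPKM. With all 8 libraries it did not (−0.50, limma adjusted p = 0.561). Psmb8, a catalytic subunit of the immunoproteasome, which cuts peptides for class I, had 5.08 to 8.63 FPKM in saline and 2.85 to 4.85 in morphine, without overlap (−0.62 ± 0.18, limma adjusted p = 0.0932). Its partner Psmb9, which overlaps Tap1 on the opposite strand, changed by −0.50 ± 0.22 (limma adjusted p = 0.236). Lgals3bp changed by −0.50 ± 0.15 (limma adjusted p = 0.102). In the other direction Irf2, Psme1, an activator subunit of the proteasome, and H2-DMa, a class II peptide editor, changed by 0.64 ± 0.18, 0.33 ± 0.10 and 0.34 ± 0.11 (log2, SE) and did not pass (limma adjusted p = 0.0868, 0.0955 and 0.116), although their groups did not overlap.

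Markers of cells that can carry these genes were compared in the same libraries. Endothelial markers fell in 4 of 16 tested genes (Slco1a4, Slc2a1, Ly6c1 and Ly6a) and 0 rose, where 1.48% of all genes fell and 1.04% rose. A negative change was found in 14 of the 16. Cldn5 and Egfl7 changed by 0.02 ± 0.15 and 0.11 ± 0.17 (log2, SE) and did not pass. The endothelial list summed to 737 to 947 FPKM in saline and 656 to 777 in morphine, with overlap. Without Bsg, an abundant gene of that list that other cells share, the sums were 303 to 326 and 218 to 246, without overlap. Leaving out Bsg was a choice beyond the planned list. Mural cell and fibroblast markers fell in 2 of 10 tested genes, Vtn and Col3a1, with sums of 90.2 to 171 and 56.2 to 73.3 FPKM. Saline replicate 4 was the lowest saline library. Col3a1 and the endothelial gene Cdh5, which did not pass, reached 1 FPKM in 4 saline and 0 morphine libraries. The saline level alone thus brought these genes into the test, and the Col3a1 call is a description only. Of 6 markers of perivascular macrophages only Pf4 was tested and did not pass (limma adjusted p = 0.072), and the list summed to 13.6, 4.70, 12.8 and 5.05 FPKM in saline and 2.2 to 3.26 in morphine. Of the microglial markers 0 of 15 passed (limma; 1 at an unadjusted p under 0.05), with overlapping sums of 619 to 872 and 644 to 708 FPKM. No marker of these 4 lists was at 0 in every library.

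Of 12 lymphocyte markers, Cd8a and Gzma were at 0 in every library and Cd3e was at or below 0.05 FPKM. The list summed to 3.16 to 25.4 FPKM in saline and to 0.30 to 1.23 in morphine. Cd4 was the only gene of this list to be tested, and it reached 1 FPKM in 4 saline and 0 morphine libraries. It had 2.45, 2.08, 23.78 and 4.26 FPKM in saline and 0.07 to 0.62 in morphine. These values were close to those of the striatal projection neuron gene Drd2 (2.73, 1.85, 23.09 and 4.11, and 0.17 to 0.55). Which cells carried Cd4 was not tested. In the list of neutrophil and red cell genes 2 of 6 tested fell, S100a8 and S100a9, where 1.48% of all genes fell. The sums of that list overlapped, at 141 to 376 FPKM in saline and 58.5 to 307 in morphine. Of 8 astrocyte markers 1 fell, Aldoc, with sums of 1936 to 2552 FPKM in saline and 1360 to 1706 in morphine. Without saline replicate 3, Slc2a1 (endothelial), Col3a1 (mural and fibroblast) and Aldoc no longer passed (limma adjusted p = 0.0546, 0.0564 and 0.0512), which left 3 endothelial genes, 1 mural gene (Vtn) and 0 astrocyte genes. S100a8 and S100a9 still passed. Cd4, which did not pass with all 8 libraries (limma adjusted p = 0.0612), then passed as lower in morphine (limma adjusted p = 0.0104). Because the saline level alone brought Cd4 into the test, its call is a description only. The part of these cell types in the lower class I and Ifitm values was not tested.

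**Figure D5:**
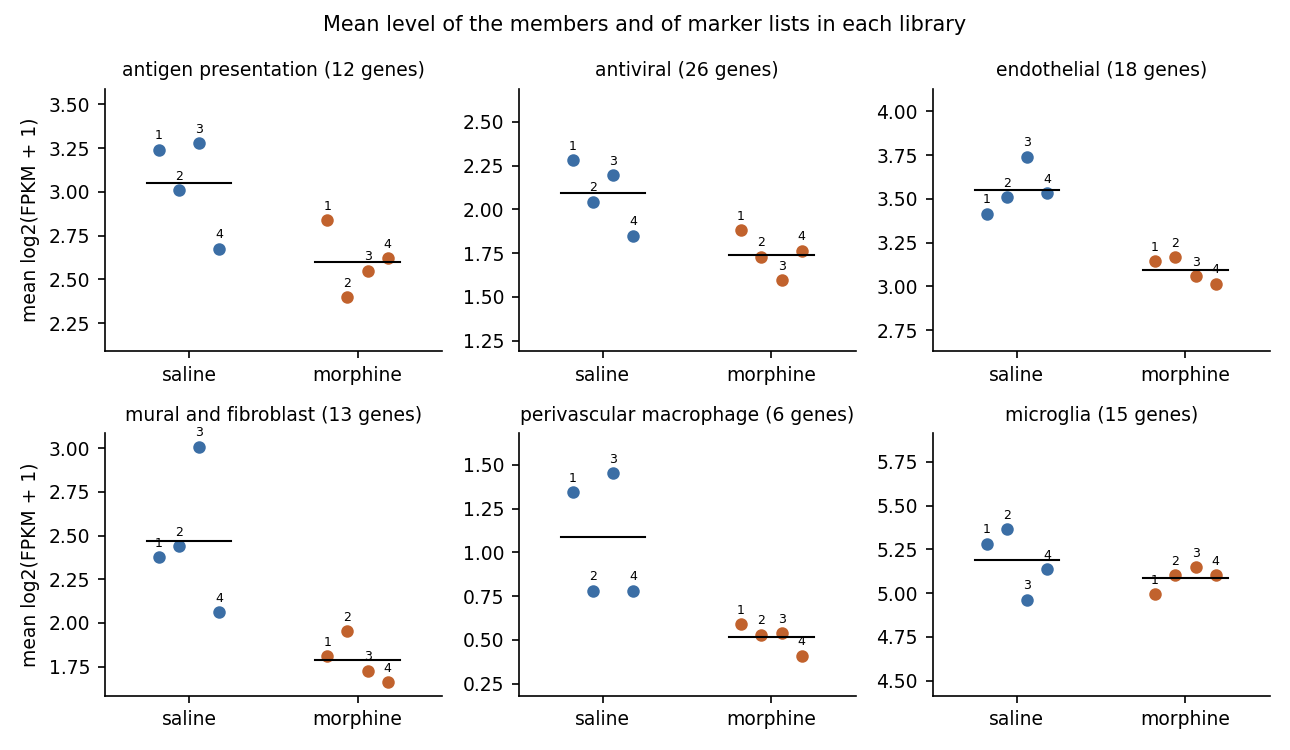
Mean log2(FPKM + 1) of the 12 antigen presentation genes, the 26 antiviral genes and 4 marker lists in each library (points numbered by replicate, lines are group means; every y axis spans the same range but starts at a different level). Endothelial, mural and perivascular macrophage means do not overlap between the groups, and those of the antigen presentation genes, the antiviral genes and microglia do.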

How the data were processed

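The authors deposited 1 table of FPKM values, per the file headers 1 column per library. Tools listed, per the submitters' processing notes, are HISAT2, RSEM, StringTie (version 1.3.1), Bowtie2 (version 2.2.8) and fastp (version 0.18.0), with the mm10 build; the role of each and the annotation are not stated there. The labels' protocol names oligo-dT priming, template switching and PCR, and no strand marking or molecular identifiers. Of 10894 low values 21.3% were whole multiples of their gene's smallest value within 0.1, where even spread gives 20%, so no reads were recovered, depth is unknown and no count model was used.

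Symbols and coordinates came from GENCODE M21 (GRCm38), which matched 22232 of 22337 identifiers. The test was limma's (version 3.58.1, R version 4.3.3; mean-variance trend, two-sided) on log2(FPKM + 1), for genes that reached 1 FPKM in 4 or more libraries. On simulated data for 12536 genes with 200 changed, 81.3% of changes of 1 and 97.0% of changes of 2 on the log2 scale were found, with 4.2% false calls. The simulated noise was independent from gene to gene, without differences that a library shares across genes. These rates thus do not cover such differences, nor changes below 1 such as those of H2-K1 and H2-D1. The 38 genes and all lists were chosen with earlier results of these data known. Values in every library are given for genes that passed, for the 12 next by p and for 5 further fixed genes (Tap1, Isg15, Bst2, Irf7 and Stat2), 22 in all. Genes of one family or overlapping genes may share reads.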

Additional observations from a re-analysis of the deposited data

Results flagged for a closer look

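In 3 of 82 groups of 4 libraries examined (38 genes and 3 list means in each treatment group), 1 library stood apart from the other 3 on the log2(FPKM + 1) scale: its gap to the nearest was a larger share of the range than Dixon's 95% critical value. Chance gives about 1 in 20 groups. H2-Ab1 was at 1.61 FPKM in saline replicate 4 and between 5.27 and 6.48 in the other saline libraries. Oasl2 was at 3.06 FPKM in saline replicate 3 and between 1.56 and 1.70 in the others. Tapbp was at 16.56 FPKM in morphine replicate 1 and between 12.97 and 13.49 in the others. None of the 3 genes passed limma's test of morphine against saline with all 8 libraries.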

How the results depend on the processing

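The 5 genes that fell were called with a pseudocount of 0.1, with a filter at 5 FPKM and with mitochondrial genes removed; H2-K1, Ifitm2 and Ifitm3 (3 genes) were called with libraries set to the same median and without the mean-variance trend; and 0 were called with no filter on low values (14 lower at an unadjusted p under 0.05) or with the replicate block (12). Leaving out 1 library at a time gave 0 to 8 lower and 0 higher genes of the set, 0 to 198 higher and 0 to 252 lower of all genes, and 0 to 1 higher and 0 to 3 lower of the wider list. The 5 genes kept their direction in all 15 alternatives. Leaving out 1 library gave −0.024 (without saline replicate 1) to 0.199 for Stat2, also negative without saline replicate 3 (−0.006), and −0.053 (without saline replicate 4) to 0.113 for Tap1. Over all genes, higher and lower calls were 8 and 9 with no filter and 2 and 3 with the block; higher calls were 77 with mitochondrial genes removed (1 gene of the wider list, Lgals9, lower) and 84 without the trend; lower calls were 111 at 5 FPKM. The antiviral median was −0.52 at a pseudocount of 0.1 and −1.29 at 5 FPKM, where fewer genes were tested, and the antigen presentation median, −0.52 in the test reported, was −0.31 with no filter and −0.69 at 5 FPKM. The replicate numbers did not pair the libraries: same-numbered deviations correlated at −0.205 to 0.052. Unless stated, the cause was not tested. FPKM carry no depth, so the precision of genes near 1 FPKM is unknown.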
